A study of Mus musculus with 6 samples.

Results

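The genes described here are 10 genes of the interleukin-1 family and of the inflammasome, a protein complex that processes some of its members, in mouse ovarian tumours. They were chosen by symbol, and all 10 (Il1a, Il1b, Il1rn, Il1r1, Il1rap, Il18, Il33, Casp1, Nlrp3 and Pycard) had a value among the 16344 genes of the deposited table. The AZD7507 group held 3 tumours from mice given AZD7507, an inhibitor of the macrophage growth factor receptor CSF1R, and the vehicle group held 3 tumours from mice given vehicle. Every tumour grew from the transplantable high-grade serous line 60577, placed in the peritoneal cavity of syngeneic mice 21 days before treatment. All animals first had 3 weekly cycles of carboplatin, followed by oral gavage each day over 84 days, and tumours were removed at the humane endpoint. The labels give no strain, sex or age of the animals, and a single line was used, so the values describe 1 tumour model. The protocol text is worded alike for all 6 tumours, so the groups rest on the treatment label.

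Interleukin-1 alpha and interleukin-1 beta (Il1a, Il1b) are inflammatory ligands that bind the receptor IL1R1, which signals together with its accessory protein, encoded by Il1rap. The receptor antagonist encoded by Il1rn occupies the same receptor without signalling. Interleukin-1 beta and interleukin-18 (Il18) are made as inactive precursors, and caspase-1 (Casp1) cuts them once a sensor such as NLRP3 has assembled an inflammasome through the adaptor ASC, encoded by Pycard. Interleukin-33 (Il33) is held in the nucleus of stromal and epithelial cells and is released on damage. Macrophages are a major source of interleukin-1 beta, its antagonist and NLRP3 in many tissues, and the level of a transcript says nothing about cutting or release of the protein.

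The values are log2 RPKM, read density per length of gene and size of library, after cqn normalization by the authors, and the depth of the libraries is unknown. Differences are AZD7507 minus vehicle on this log2 scale, and a gene counted as changed at a limma Benjamini-Hochberg adjusted p under 0.05 over all genes. Csf1r, the drug target, was at 2.57, 2.78 and 1.71 in AZD7507 tumours, against 4.85, 5.47 and 4.59 in vehicle tumours, and fell by 2.62 (SE 0.32, limma adjusted p 0.0345), although no gene of the table passed without any 1 vehicle library. All 15 macrophage markers on the list had a value, and 6 of them fell, among them Adgre1 (-2.28) and C1qa (-2.56). Of the 15, 13 were lower in every AZD7507 tumour than in any vehicle tumour. Over all genes 0.337% were called lower, and 8.02% were lower without overlap. The macrophage markers summed to 91.3 to 218 RPKM in AZD7507 tumours and 440 to 712 RPKM in vehicle tumours. No gene passed in the other 10 marker lists. T cell markers, of which 4 of 7 had a value, summed to 1.36 to 1.83 RPKM in AZD7507 tumours and 2.28 to 2.73 RPKM in vehicle tumours. Among these 4, Cd4, Cd5 and Il7r were lower without overlap, whereas Cd3e overlapped, with a difference of -0.08. Cd3d, Cd3g and Cd8a had no value. In bulk tumour, fewer cells of a type and less RNA per cell cannot be told apart. Tumours numbered 2 of both groups stood apart through pancreatic acinar transcripts, whose 10 measured markers summed to 5861 RPKM in AZD7507 2 and 5293 RPKM in Vehicle 2, against 2.66 to 11.4 RPKM elsewhere. Of the markers of serous ovarian tumour, Krt8 ran from 4.23 to 4.93, whereas Pax8 lay between -3.89 and -2.09 in the 6 libraries. Cldn4 was not analysed here. Wt1, which mesothelium also expresses and which was on the mesothelial list, ran from 6.13 to 6.72. The 6 mesothelial markers summed to 524 to 770 RPKM in AZD7507 tumours and 398 to 618 RPKM in vehicle tumours. Krt8 and Krt18 were higher in every AZD7507 tumour than in any vehicle tumour without passing the test. All 8 measured epithelial markers had differences above 0. Over all genes 7.34% were higher without overlap, and 8911 of 16344 differences were above 0. The epithelial sums of 288 to 345 RPKM in AZD7507 tumours overlapped with 191 to 302 RPKM in vehicle tumours.

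Promoter sequences are shown for the sensor gene Nlrp3, for Nlrc4 and Naip5, which encode parts of another inflammasome, and for the ligand gene Il1b and its antagonist Il1rn, because these genes carry the comparisons that follow. Each run is read 5′ to 3′ on the strand of the gene from the RefSeq table for GRCm38.p6, covers up to 250 bases before the start site and stops before the GENCODE start of the gene. Capitals mark matches on either strand to 4 motifs, which are the TATA box TATAAA, the AP-1 site TGANTCA, the ETS core AGGAAGT and the NF-kB consensus. These motifs were picked with the expression values known, and a match is a string of letters, not a bound site.
Nlrp3, chr11:59541319-59541567, plus strand: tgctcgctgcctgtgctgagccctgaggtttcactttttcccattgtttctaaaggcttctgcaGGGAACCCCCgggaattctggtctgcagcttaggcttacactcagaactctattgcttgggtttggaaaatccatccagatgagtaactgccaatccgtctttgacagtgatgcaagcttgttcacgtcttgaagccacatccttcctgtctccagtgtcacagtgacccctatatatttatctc
Nlrc4, chr17:74459143-74459358, minus strand: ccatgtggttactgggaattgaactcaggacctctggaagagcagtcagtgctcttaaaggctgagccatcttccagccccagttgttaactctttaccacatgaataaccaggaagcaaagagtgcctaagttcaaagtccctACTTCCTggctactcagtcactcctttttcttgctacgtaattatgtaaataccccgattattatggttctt
Naip5, chr13:100247337-100247586, minus strand: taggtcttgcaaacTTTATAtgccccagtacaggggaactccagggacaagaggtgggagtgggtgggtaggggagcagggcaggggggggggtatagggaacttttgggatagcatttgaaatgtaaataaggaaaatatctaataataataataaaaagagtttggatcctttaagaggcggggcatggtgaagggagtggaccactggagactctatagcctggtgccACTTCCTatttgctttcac
Il1b, chr2:129371140-129371389, minus strand: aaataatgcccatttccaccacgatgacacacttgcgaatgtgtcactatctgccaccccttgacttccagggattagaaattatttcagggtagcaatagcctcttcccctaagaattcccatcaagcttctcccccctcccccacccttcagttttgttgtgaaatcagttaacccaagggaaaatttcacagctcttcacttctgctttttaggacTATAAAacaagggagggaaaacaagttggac
Il1rn, chr2:24336610-24336852, plus strand: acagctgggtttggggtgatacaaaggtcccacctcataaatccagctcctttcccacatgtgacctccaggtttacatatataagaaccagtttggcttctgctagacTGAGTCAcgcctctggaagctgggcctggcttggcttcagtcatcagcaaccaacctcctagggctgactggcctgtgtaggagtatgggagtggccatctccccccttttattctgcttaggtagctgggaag

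Where a gene has several RefSeq starts, the most upstream was printed, and the windows of the other Nlrp3 and Il1rn starts held none of these motifs. The capitals show an NF-kB consensus 186 to 177 bases before the printed Nlrp3 start, and the TATA box of Il1b 31 to 26 bases before its start. The capitals in Il1rn are an AP-1 site 141 to 135 bases upstream, which matches TGANTCA on both strands. The ETS core stands on the opposite strand (ACTTCCT) 106 to 100 bases upstream in Nlrc4 and 19 to 13 bases upstream in Naip5, and no matches of different motifs overlap. A further ETS match of Nlrc4, 10 to 4 bases upstream, lies in the part not printed, and Naip5 has a TATA box string on the opposite strand 236 to 231 bases upstream. The Naip5 window belongs to a RefSeq start that lies before the GENCODE start. The ETS core is the kind of sequence that the myeloid factor PU.1 and its many relatives recognise. Among 32851 windows of 250 bases, 12.4% held the TATA box, 6.75% the AP-1 site, 7.69% the ETS core and 5% the NF-kB consensus. Counted per gene, the TATA box lay upstream of 4 of the 10 genes, namely Il1a, Il1b, Il18 and Il33, which are the agonist ligand genes among them. The ETS core was found in 5 of the 17 other inflammasome genes with a window, namely Aim2, Naip2, Naip5, Nlrc4 and Nlrp1b, and among the 10 genes in Pycard alone. Among those 17, 1 held a TATA box, 1 an AP-1 site and 1 the NF-kB consensus. Among the 10 genes, 2 held an AP-1 site and 1 the NF-kB consensus. Over the 27025 genes with a window, 14.3% held a TATA box, 7.82% an AP-1 site, 8.8% an ETS core and 5.67% the NF-kB consensus. These counts were not tested.

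None of the 10 genes passed the test in either direction, where 0.337% of all genes were called lower and 0.0184% higher. At an unadjusted limma p under 0.05, 1 of the 10 was lower (Nlrp3) and 1 higher (Il1rn), against 5.49% lower and 3.31% higher over all genes. The groups did not overlap for 3 of them, Nlrp3 below and Il1rn and Casp1 above the vehicle range, where 15.4% of all genes had groups that did not overlap. Differences lay below 0 for 5 genes and above 0 for 5, with a median of -0.0021, against 0.025 over all genes. Since the genes were chosen, these shares describe them and are no test of the list.

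**Figure D1:**
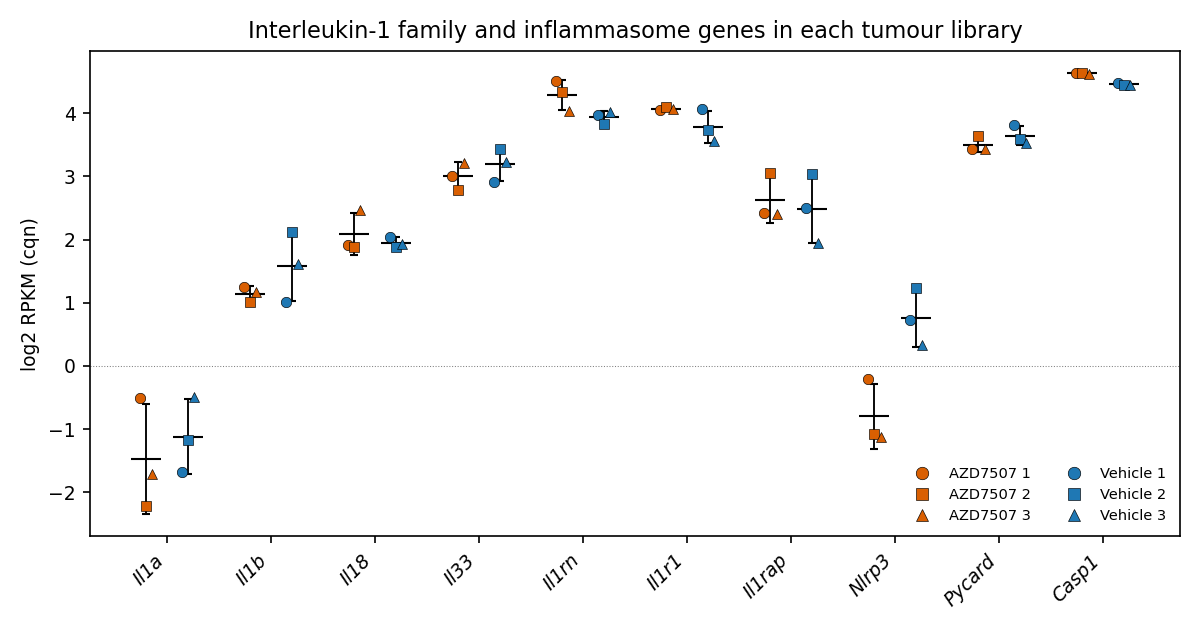
Log2 RPKM (vertical axis) of the 10 genes in each of 6 tumours, AZD7507 in orange and vehicle in blue. Horizontal bars are means, vertical bars SD (n = 3 each). Nlrp3 was between -1.12 and -0.20 in AZD7507 tumours and between 0.33 and 1.24 in vehicle tumours, and Casp1 and Il1rn were the other genes whose groups did not overlap.

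Casp1 was the highest of the 10 genes, at 24.6 to 24.9 RPKM in AZD7507 tumours and 21.8 to 22.4 RPKM in vehicle tumours, with 90.5% of all genes at or below it in AZD7507 tumours and 89.1% in vehicle tumours. Il1a was lowest, with 4.60% of genes at or below it in AZD7507 tumours and 6.37% in vehicle tumours, at 0.216 to 0.703 RPKM in AZD7507 tumours and 0.313 to 0.708 RPKM in vehicle tumours. In AZD7507 tumours the order by mean was Casp1, Il1rn, Il1r1, Pycard, Il33, Il1rap, Il18, Il1b, Nlrp3 and Il1a, and vehicle tumours gave the same order. Neighbours whose ranges overlapped in AZD7507 tumours were Il1rn with Il1r1, Il33 with Il1rap, Il1rap with Il18, and Nlrp3 with Il1a. In vehicle tumours the overlapping neighbours were Il1rn with Il1r1, Il1r1 with Pycard, Il33 with Il1rap, Il1rap with Il18, Il18 with Il1b, and Il1b with Nlrp3.

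Among the ligands, Il1b (ENSMUSG00000027398, chr2:129364570-129371139, minus strand) was at a log2 RPKM of 1.25, 1.02 and 1.17 in AZD7507 tumours, against 1.02, 2.12 and 1.61 in vehicle tumours. The AZD7507 values lay close together at the low end of the vehicle range, AZD7507 2 was level with Vehicle 1, and Vehicle 2 was the highest. The difference was -0.44 (SE 0.27, 95% interval -1.08 to 0.20, limma adjusted p 0.73), and it was -0.17 without Vehicle 2 and -0.72 without Vehicle 1. Vehicle 2 was also the library with the highest summed macrophage, monocyte, neutrophil and fibroblast markers of the 6. Its macrophage markers summed to 712 RPKM, against 440 and 471 RPKM in the other vehicle tumours, and its monocyte markers to 40.7 RPKM, against 22.5 and 23.4 RPKM. Neutrophils also make interleukin-1 beta, and their 5 markers with a value, of 10, summed to 6.11 to 9.77 RPKM in AZD7507 tumours, and to 15.3 RPKM in Vehicle 2 and 3.74 and 4.09 RPKM in the other vehicle tumours. S100a8, S100a9, Csf3r and Mmp8 were highest in Vehicle 2, and Cxcr2 was highest in AZD7507 1. S100a8 was at 1.78, 1.38 and 0.82 in AZD7507 tumours and at -0.66, 1.95 and -0.03 in vehicle tumours, whereas Csf3r was lower in every AZD7507 tumour. The part of these transcripts in the Il1b values was not tested.

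Il1a (ENSMUSG00000027399, chr2:129299610-129309972, minus strand), the neighbour of Il1b on chromosome 2, encodes a ligand that is active without caspase-1. It was at -0.51, -2.21 and -1.70 in AZD7507 tumours and at -1.68, -1.18 and -0.50 in vehicle tumours. The groups overlapped, AZD7507 2 and AZD7507 3 were the lowest libraries, and all 6 values lay under 1 RPKM, where few reads may stand behind a value. The difference was -0.36 (SE 0.52, 95% interval -1.57 to 0.86, limma adjusted p 0.89), and it was 0.012 without AZD7507 2 and -0.84 without AZD7507 1.

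Il18 (ENSMUSG00000039217, chr9:50554827-50581840, plus strand), which encodes an inducer of interferon-gamma, was at 1.92, 1.89 and 2.48 in AZD7507 tumours and at 2.04, 1.88 and 1.92 in vehicle tumours. AZD7507 3 alone stood above the rest, and the difference was 0.14 (SE 0.18, limma adjusted p 0.88). Without AZD7507 3 it was -0.05, and without AZD7507 2 it was 0.25. Il33 (ENSMUSG00000024810, chr19:29925114-29960718, plus strand) had the highest mean value of the ligand genes in both groups. It was at 3.01, 2.78 and 3.22 in AZD7507 tumours and 2.92, 3.44 and 3.23 in vehicle tumours. These groups overlapped, with a difference of -0.19 (SE 0.17, 95% interval -0.59 to 0.21, limma adjusted p 0.83), which ran from -0.33 without Vehicle 1 to -0.07 without Vehicle 2 and was 0.043 without both acinar-rich libraries. Fibroblast markers, which accompany a known source of interleukin-33, summed to 614 to 720 RPKM in AZD7507 tumours and 579 to 865 RPKM in vehicle tumours over 9 of 9 genes. Their part in the Il33 values was not tested.

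The antagonist gene Il1rn (ENSMUSG00000026981, chr2:24336853-24351494, plus strand) was at 4.51, 4.34 and 4.04 in AZD7507 tumours, against 3.97, 3.82 and 4.01 in vehicle tumours. Every AZD7507 value was above every vehicle value, although AZD7507 3 exceeded Vehicle 3 by very little. The means were 4.30 ± 0.24 in AZD7507 tumours and 3.94 ± 0.10 in vehicle tumours (SD, n = 3 each), a difference of 0.36 (SE 0.14, 95% interval 0.03 to 0.69), or 1.28-fold, which did not pass (limma adjusted p 0.53). The macrophage markers given above were lower in the tumours in which Il1rn was higher, and their part in the Il1rn values was not tested. Alternative starts of Il1rn give a secreted and intracellular forms, which a value per gene cannot separate.

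The receptor gene Il1r1 (ENSMUSG00000026072, chr1:40225080-40317257, plus strand) was at 4.05, 4.10 and 4.07 in AZD7507 tumours and at 4.06, 3.74 and 3.56 in vehicle tumours. Vehicle 1 fell inside the narrow AZD7507 range while the other vehicle tumours were below it. The difference was 0.29 (SE 0.14, 95% interval -0.04 to 0.62, limma adjusted p 0.62), and it was 0.17 without Vehicle 3 and 0.43 without Vehicle 1. Il1rap (ENSMUSG00000022514, chr16:26581704-26730117, plus strand), for the accessory chain that the receptors of interleukin-1 and interleukin-33 share, was at 2.43, 3.05 and 2.40 in AZD7507 tumours and at 2.49, 3.03 and 1.94 in vehicle tumours. The highest value of each group came from the library rich in acinar transcripts, and the difference was 0.14 (SE 0.30, limma adjusted p 0.93). It was -0.07 without AZD7507 2, -0.14 without Vehicle 3 and 0.41 without Vehicle 2.

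RPKM is a density per length of gene, so transcripts were set against each other within a library. Whether levels stay comparable between genes after cqn normalization was not checked, which also bears on the order of the 10 genes. Il1rn exceeded Il1b by 9.57, 10.04 and 7.31 times in AZD7507 tumours, against 7.77, 3.25 and 5.29 times in vehicle tumours. On the log2 scale Il1b minus Il1rn averaged -3.15 ± 0.25 in AZD7507 tumours and -2.35 ± 0.63 in vehicle tumours (SD, n = 3 each), and the groups overlapped because AZD7507 3 lay above Vehicle 1. The antagonist transcript was in excess over both agonist transcripts in all 6 tumours. For Il1a the excess of Il1rn was 32.3 to 94.0 times in AZD7507 tumours and 22.8 to 50.3 times in vehicle tumours. Il18bp, which encodes a soluble trap for interleukin-18, was 1.27 to 1.76 times the level of Il18 in AZD7507 tumours and 1.26 to 1.74 times in vehicle tumours. The signalling receptor Il1r1 exceeded the decoy receptor Il1r2 by 44.4 to 59.6 times in AZD7507 tumours and 32.3 to 108 times in vehicle tumours. These ratios were made from selected genes and were not tested.

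**Figure D2:**
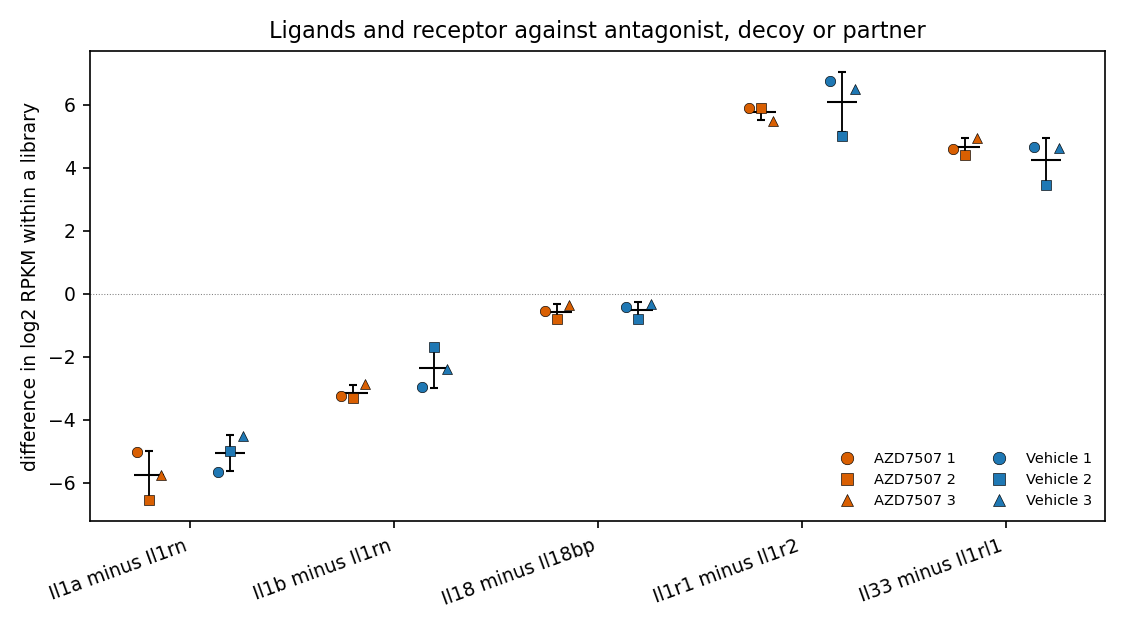
Differences in log2 RPKM between pairs of genes within each library (vertical axis), AZD7507 in orange and vehicle in blue, with means and SD (n = 3 each). Il1b lay below its antagonist Il1rn in all 6 libraries, with means of -3.15 in AZD7507 tumours and -2.35 in vehicle tumours, and the groups overlapped.

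The sensor gene Nlrp3 (ENSMUSG00000032691, chr11:59541568-59566956, plus strand) showed the widest separation of the 10 genes. It was at -0.20, -1.07 and -1.12 in AZD7507 tumours, against 0.73, 1.24 and 0.33 in vehicle tumours, which is 0.871, 0.476 and 0.461 RPKM against 1.65, 2.36 and 1.25 RPKM. All AZD7507 values were below all vehicle values, with the gap between AZD7507 1 and Vehicle 3. The means of -0.80 ± 0.52 in AZD7507 tumours and 0.76 ± 0.46 in vehicle tumours (SD, n = 3 each) differed by -1.56 (SE 0.35, 95% interval -2.38 to -0.74), or 2.95-fold. Its unadjusted limma p was 0.0027, and it did not pass over all genes (limma adjusted p 0.18). As Nlrp3 is near 1 RPKM, a pseudocount of 1 shrank the difference to -0.77. Csf1r and the macrophage list separated the same tumours, as given above, and their part in the Nlrp3 values was not tested.

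The adaptor and the caspase genes had small differences, and neither passed the test. Pycard (ENSMUSG00000030793, chr7:127989708-127993867, minus strand) was at 3.44, 3.64 and 3.43 in AZD7507 tumours and at 3.82, 3.59 and 3.53 in vehicle tumours. These overlapped, with a difference of -0.14 (SE 0.12, 95% interval -0.43 to 0.14, limma adjusted p 0.82), and it was -0.055 without Vehicle 1. Casp1 (ENSMUSG00000025888, chr9:5298517-5307265, plus strand) was at 4.64, 4.63 and 4.62 in AZD7507 tumours, against 4.48, 4.45 and 4.45 in vehicle tumours. No other of the 10 genes varied so little within a group, with an SD of 0.0088 in AZD7507 tumours and 0.019 in vehicle tumours, and the groups did not overlap. The part of the epithelial markers given above, of which Krt8 and Krt18 separated the groups in the same direction as Casp1 and Il1rn, was not tested. The difference of 0.17 was 1.12-fold, and limma, which draws such small SDs towards those of other genes, gave an SE of 0.09 and an adjusted p of 0.67. On the deposited values, Casp1 exceeded Nlrp3 by 28.6 to 53.5 times in AZD7507 tumours and 9.25 to 17.5 times in vehicle tumours. Pycard exceeded Nlrp3 by 12.5 to 26.3 times in AZD7507 tumours and 5.10 to 9.22 times in vehicle tumours.

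Other inflammasome genes were described from a list of 23, of which 19 had a value. None passed the test, 7 had an unadjusted limma p under 0.05 and were lower, where 5.49% of all genes were, and 16 of the 19 differences were below 0, with a median of -0.25 against 0.025 over all genes. In 7 of the 19 every AZD7507 tumour was below every vehicle tumour and in none was every one above, where 8.02% of all genes were lower and 7.34% higher in this way. The 7 were Nlrp1b, Nlrc4, Naip2, Naip5, Naip6, Nlrc3 and P2rx7, and of these Nlrc4, Naip2, Naip6 and Nlrc3 were singled out after their values were seen. Apart from P2rx7 they encode proteins of the NLR family to which NLRP3 belongs, and P2rx7 encodes the ATP-gated channel that triggers NLRP3. Nlrp10, of the same family, overlapped between the groups, with a difference of -0.25.

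Nlrp1b, for the sensor of anthrax lethal factor, was at -2.03, -2.64 and -3.44 in AZD7507 tumours, against -1.06, -0.72 and -0.996 in vehicle tumours. The difference was -1.78 (SE 0.42, limma adjusted p 0.20). Naip5, which binds bacterial flagellin for NLRC4, was at -1.22, -1.11 and -1.66 in AZD7507 tumours and at 0.13, 0.37 and -0.35 in vehicle tumours, a difference of -1.38 (SE 0.30, limma adjusted p 0.17). In both genes AZD7507 3 was the lowest library. Nlrc4 itself was at -2.50, -1.11 and -3.09 in AZD7507 tumours and at -0.46, 0.18 and -0.58 in vehicle tumours, a difference of -1.95 (SE 0.53, limma adjusted p 0.28). Naip2, Naip6 and Nlrc3, the last of which restrains inflammatory signalling, had differences of -0.85, -0.75 and -0.74, with limma adjusted p of 0.50, 0.32 and 0.48. Reads may have been split among the Naip genes, which are close copies in a cluster on chromosome 13, and all 6 of these genes were under 2 RPKM in AZD7507 tumours.

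P2rx7 was expressed more strongly, at 2.36, 2.58 and 2.17 in AZD7507 tumours, against 3.03, 2.77 and 3.07 in vehicle tumours. Its difference was -0.59 (SE 0.15, 95% interval -0.93 to -0.24, limma adjusted p 0.24). The 13 of 15 macrophage markers that were lower without overlap stand beside all of these genes, and their part was not tested. With a pseudocount of 1 the differences of these low genes shrank, to -0.56 for Nlrc4, -0.55 for Naip5, -0.39 for Nlrp1b, -0.49 for Naip2, and -0.34 for both Naip6 and Nlrc3. With the mean acinar level as a covariate, Nlrc4 and Naip5 passed (-2.02 and -1.41, limma adjusted p 0.040 and 0.049). That fit called 187 genes lower and 16 higher over all genes, against 55 and 3 without the covariate. With array weights P2rx7 passed (-0.72, limma adjusted p 0.034), and 143 genes were called lower and 14 higher. In other settings the limma adjusted p rose to 0.75 for Nlrc4, 0.52 for Naip5 and 0.74 for P2rx7.

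The remaining inflammasome genes overlapped between the groups. Gsdmd, for the pore-forming protein that caspase-1 cuts in pyroptosis, averaged 4.85 ± 0.22 in AZD7507 tumours and 5.02 ± 0.39 in vehicle tumours (SD, n = 3 each). Aim2, the sensor of cytosolic DNA, averaged 2.86 ± 0.23 in AZD7507 tumours and 3.07 ± 0.30 in vehicle tumours, and its difference of -0.20 (95% interval -0.64 to 0.23) was smaller in size than those of the NLR genes named above, a contrast that was not tested. Casp4 and Casp12 lie next to Casp1 on chromosome 9, between 5308828 and 5373032, and had differences of 0.09 and 0.28. The NLRP3 partner gene Nek7 differed by -0.02, and Txnip by -0.36 with a level of 7.88 ± 0.22 in AZD7507 tumours and 8.25 ± 0.22 in vehicle tumours.

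**Figure D3:**
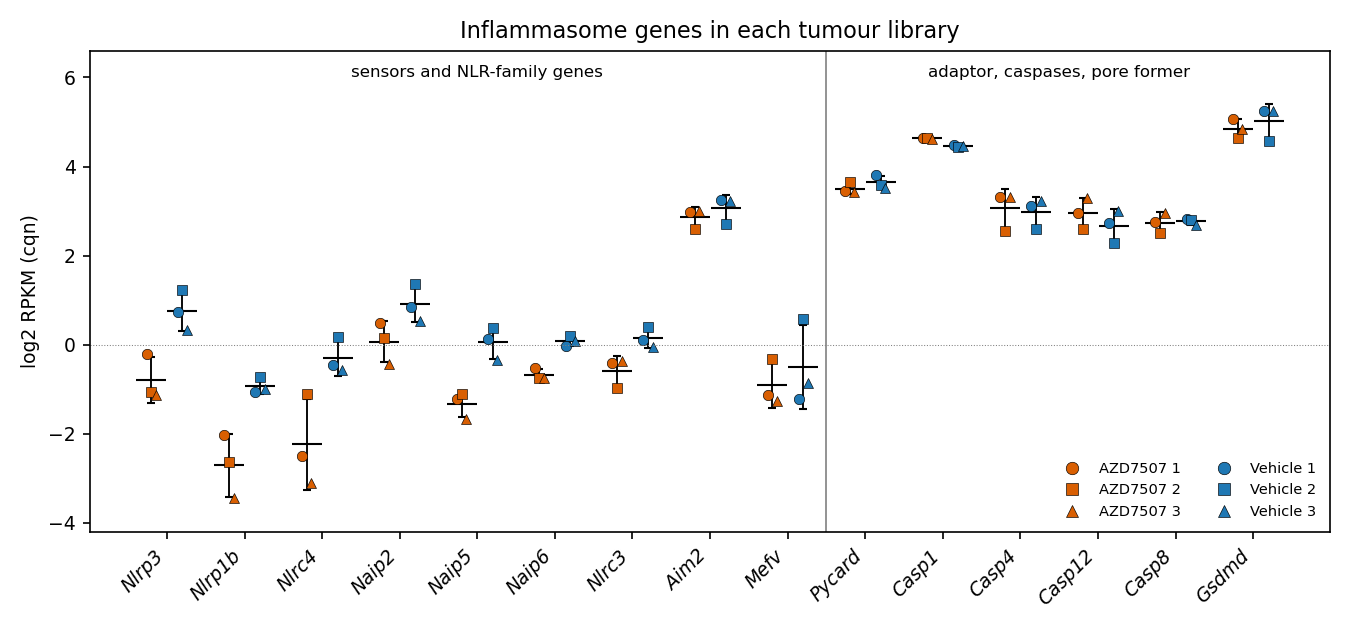
Log2 RPKM (vertical axis) of 15 inflammasome genes in each tumour, AZD7507 in orange and vehicle in blue, with means and SD (n = 3 each); sensors and NLR-family genes are left of the line. Nlrp3, Nlrp1b, Nlrc4, Naip2, Naip5, Naip6 and Nlrc3 were lower in every AZD7507 tumour. The groups overlapped for Aim2 and Mefv, also left of the line, and for Pycard, Gsdmd and the caspases other than Casp1. Nlrp10, also of the NLR family, is not shown, and its groups overlapped.

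**Figure D4:**
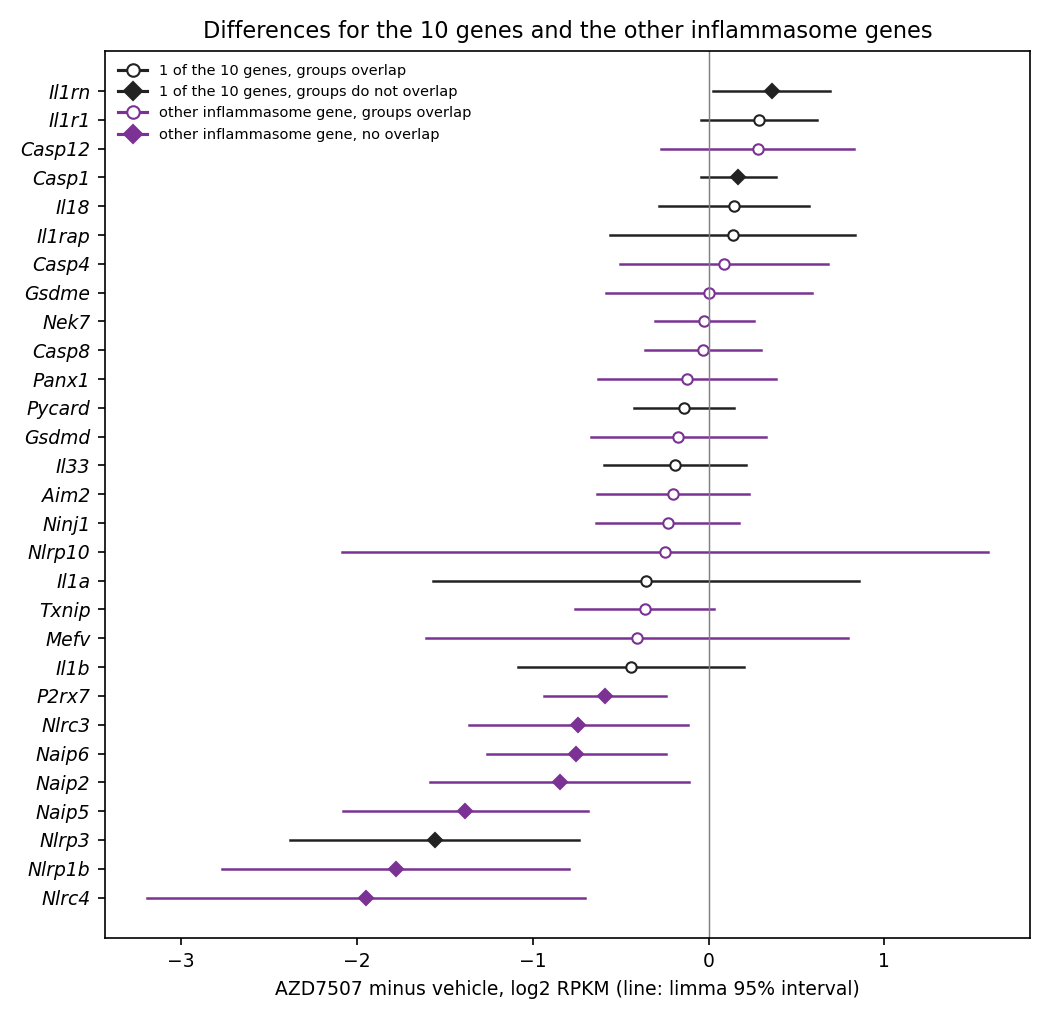
AZD7507 minus vehicle difference in log2 RPKM (horizontal axis) with limma 95% intervals for the 10 genes (black) and 19 other inflammasome genes (purple). Filled diamonds mark groups that did not overlap. The 8 lowest, from P2rx7 at -0.59 to Nlrc4 at -1.95, were all of this kind, and none of the 29 passed after adjustment over all genes.

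Other receptors and decoys of the family showed no separation. Of 9 listed genes 7 had a value, none passed, and the groups overlapped for every one. None had an unadjusted p under 0.05, and the median difference was 0.05. Over all genes 0.355% passed, 15.4% did not overlap and 8.8% had an unadjusted p under 0.05. With 7 genes, these counts lay near the background. Il18bp was at 2.47, 2.71 and 2.83 in AZD7507 tumours and at 2.46, 2.68 and 2.26 in vehicle tumours, a difference of 0.20 (limma adjusted p 0.79). Il1rl1, for the interleukin-33 receptor ST2, was at -1.59, -1.61 and -1.74 in AZD7507 tumours and at -1.74, 0.00 and -1.40 in vehicle tumours, so that Vehicle 2 alone exceeded -1.40. Il1r2, for the decoy receptor, averaged -1.68 ± 0.24 in AZD7507 tumours and -2.30 ± 0.90 in vehicle tumours (SD, n = 3 each). Il1r1 lies with Il1r2, Il1rl2, Il1rl1, Il18r1 and Il18rap in 1 stretch of chromosome 1 from 40074079 to 40551705, and the groups overlapped for all 6. No value was given for the 5 other listed ligands, which are 4 genes of the interleukin-36 group and Il1f10.

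Downstream of the receptors, none of 20 measured signalling genes passed, 1 was lower at an unadjusted p under 0.05, 2 were lower and 2 higher without overlap, and their median difference was -0.03. Over all genes 5.49% were lower at an unadjusted p under 0.05, and 8.02% were lower and 7.34% higher without overlap, so these counts lay near the background. Ikbkb, for the kinase that releases NF-kB, was at 3.18, 3.16 and 2.94 in AZD7507 tumours, against 3.61, 3.60 and 3.36 in vehicle tumours. That is a difference of -0.43 (SE 0.12, 95% interval -0.71 to -0.14, limma adjusted p 0.32). Mapk14, for the stress kinase p38 alpha, differed by -0.22, Tab3, for an adaptor of the kinase TAK1, by 0.28, and Chuk, for the partner kinase of IKBKB, by 0.14, also without overlap. Chuk was named after its values were seen.

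Genes that interleukin-1 and NF-kB are known to induce gave no pattern in 1 direction. Of 22 listed genes 17 had a value, none passed, and none had an unadjusted p under 0.05. The groups overlapped for all, and 9 differences were below and 8 above 0. Over all genes 0.355% passed, 8.8% had an unadjusted p under 0.05 and 15.4% did not overlap. Ptgs2, for the prostaglandin synthase COX-2, was at 3.43, 3.73 and 2.80 in AZD7507 tumours and at 1.83, 3.28 and 2.05 in vehicle tumours, a difference of 0.93 (SE 0.40, 95% interval -0.01 to 1.88, limma adjusted p 0.57). The neutrophil attractant gene Cxcl5 was at 3.67, 3.24 and 3.28 in AZD7507 tumours and at 1.89, 4.05 and 1.57 in vehicle tumours. In both genes Vehicle 2 was far above the other vehicle tumours, and this library, which is also acinar-rich, had the highest macrophage, monocyte, neutrophil and fibroblast marker sums of the 6. Their part in these values was not tested. Nfkbia, for the inhibitor that NF-kB induces, averaged 4.74 ± 0.24 in AZD7507 tumours and 4.99 ± 0.16 in vehicle tumours (SD, n = 3 each). Il6, Cxcl2, Ccl20, Csf2 and Csf3 had no row and were not analysed here.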

How the data were processed

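RNA of 6 mouse tumours was measured, 3 from AZD7507 and 3 from vehicle animals. Libraries were made from total RNA with a kit that removes ribosomal RNA, per the labels' protocols. BWA 0.7.15-r1140, HTSeq, mm10 and GRCm38 are named in the submitters' processing notes. The deposited values are log2 RPKM that the authors normalized with cqn, per the name of the table. The strand setting, annotation release and low-value filter are not given in the sources used here. Quartiles are nearly equal between libraries, so a shift shared by all genes would not show. Without strand, reads of Il1a, Il1b, Il1rap, Il18, Pycard, Aim2, Gsdme, Nek7 and Txnip cannot be told apart from those of overlapping genes on the other strand. Il1r1, Nlrc4, Naip2, Casp8, Nek7 and P2rx7 share bases with genes on the same strand, which a strand setting would not separate.

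Symbols were matched for 16306 of 16344 identifiers. Coordinates are GRCm38 in GENCODE M21. All genes were fitted together with limma 3.58.1 in R 4.3.3 (trended, robust prior, no pseudocount, no filter, Benjamini-Hochberg, 2-sided). The fit was tested on simulated data. The labels name no batch or pairing, no depth is known, and nothing ties a tumour to an animal, so a p-value reflects only how these tumours vary, which may be technical. The genes and lists were chosen with earlier results of these data known. Named by rule were all 10 genes, the 3 genes with the smallest p of each pathway list, Csf1r, and the markers Adgre1, C1qa, S100a8, S100a9 and Csf3r. Genes named outside this rule include Gsdmd, Aim2, Mefv, Casp4, Casp12, Nek7, Txnip, Wt1, Krt8, Krt18, Pax8, Cd3e, Cd4, Cd5 and Il7r. Alternatives were other priors, filters, pseudocounts, scalings and weights, leaving out libraries, and an acinar covariate.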

Additional observations from a re-analysis of the deposited data

How the results depend on the processing

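No paired analysis was possible because the labels give no replicate numbers, and numbers follow the order of the records. In 15 alternative settings, 148 differences of the 10 genes were computed (Il1a and Nlrp3 are left out by a minimum mean log2 value of 0), and none passed the adjusted threshold. Direction held in 143 of them. The exceptions were Il1a without AZD7507 2 (0.012; range without 1 library -0.84 to 0.012), Il1rap without AZD7507 2 (-0.07) and without Vehicle 3 (-0.14; range -0.14 to 0.41), Il18 without AZD7507 3 (-0.047; range -0.047 to 0.25), and Il33 without both acinar-rich libraries (0.043). The cause was not tested. Nlrp3 ranged from -1.86 to -0.77 (adjusted p 0.11 to 0.56) and Il1rn from 0.25 to 0.49 (adjusted p 0.28 to 0.82).

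Over all genes 55 were lower and 3 higher. These counts were 143 and 14 with array weights, 187 and 16 with the acinar covariate, 13 and 1 without both acinar-rich libraries, and 1 higher with a constant prior. Leaving out 1 library gave 0 to 14 lower and 0 higher. Without any 1 vehicle library no gene was called, although 737 to 1359 were lower and 453 to 1082 higher at an unadjusted p under 0.05 in those 3 fits. Genes called in the pathway lists numbered 1 with array weights and 2 with the acinar covariate, against 0. Of constant prior, filter, pseudocounts, quantile normalization and median centring, none moved the median of all genes by 0.1. A prior cannot change a difference, and library medians of 2.3166 to 2.317 left median centring and quantile normalization little to move. No conclusion is drawn from these settings.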

Other observations

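Nlrp10, an NLR-family gene without a place among the genes named by rule, was chosen after its values were seen. It was at 2.82, 1.42 and 2.67 in AZD7507 tumours and at 3.68, 0.66 and 3.33 in vehicle tumours, so the lowest value of each group came from the library rich in pancreatic acinar transcripts. Gsdmd, Casp4, Casp12 and Aim2 were likewise lowest in AZD7507 2 and Vehicle 2 within their groups. Their common position was not tested.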
